A study of Homo sapiens with 4 samples.

Results

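Kinesin motor genes were compared between zones of collagen-embedded MV3 melanoma spheroids at day 2, the compact core and the invasion zone around it. The members were all rows of the count table whose gene symbol has the form KIF followed by a number and at most 1 letter from A to C, plus KIFC1, KIFC2 and KIFC3, which gave 42 genes out of 56303. Of these, 12 were taken as mitotic kinesins (KIF2C, KIF4A, KIF11, KIF14, KIF15, KIF18A, KIF18B, KIF20A, KIF20B, KIF22, KIF23 and KIFC1) and 30 as other kinesins. The symbol decides membership, so CENPE, a kinesin of the kinetochore named otherwise, is listed with the partner genes.

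MV3 is an established human melanoma line, here carrying H2B-GFP, a fluorescent histone that marks the nuclei in all libraries. Spheroids of 50000 cells had been grown in collagen I, a punch of 1 mm took the core and one of 3 mm the ring of invading cells, and each zone gave 2 libraries, replicates 1 and 2. The punch cuts vertically, so invading cells above and below the spheroid could remain in the core sample. The labels do not say that the replicates were separate cultures, and the p-values measure the spread between these libraries only. Total counts were 36363358 and 37591782 in the replicate 1 libraries of core and invasion zone and 14983135 and 11789243 in the replicate 2 libraries. Pigment cell markers were at or near 0. SOX10 and TYR had 0 counts in all 4 libraries (3 counts, the floor used here, equal 0.0798 to 0.254 CPM). MITF lay between 1.71 and 3.37 CPM. VIM, a mesenchymal filament gene, lay between 1696 and 2439 CPM (log2 fold change 0.12, zones overlapping). AXL, from the same marker list, lay between 629 and 1224 CPM (log2 fold change 0.89, both invasion zone values above both core values). Of 10 markers of other cell types, EPCAM, CDH1, PTPRC, CD68, CDH5 and THY1 reached at most 0.337 CPM in any library. KRT18, a keratin, was the most abundant of the list, at 131 and 158 CPM as core values and 134 and 118 CPM as invasion zone values (log2 fold change -0.19, zones overlapping). The list summed to 265 and 241 CPM in core replicates 1 and 2 and 184 and 135 CPM in invasion zone replicates 1 and 2. Log2 fold changes, invasion zone over core, were -1.55 for PDGFRA, -2.15 for PDGFRB and -1.96 for PECAM1. The part of this list in the results below was not tested.

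Kinesins are motors that hydrolyse ATP to move along microtubules or to take them apart. Transport kinesins carry vesicles, organelles and RNA, mostly towards the plus ends of microtubules at the cell edge. Mitotic kinesins build the spindle, move the chromosomes and close the cell at division, and their genes are typically transcribed late in the cell cycle through promoter elements that are shut in resting cells.

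The promoters of 6 kinesins are shown first, because most mitotic members share 2 short elements there. KIF18B, KIF23 and KIF2C had the largest zone difference of the mitotic genes, KIF24 that of the other kinesins, KIF20A the smallest of the mitotic genes, and KIF5B was the most abundant transport kinesin (KIF20A and KIF5B were added after their values were seen). Each stretch runs 5′ to 3′ from 160 bases before the annotated start to 30 bases after it (RefSeq, GRCh38.p14). Capitals in runs of 6 mark the cell cycle genes homology region, or CHR (TTTGAA or TTCGAA on either strand), where cell cycle repressor and activator complexes bind, and capitals in runs of 5 mark the CCAAT box (CCAAT or its complement ATTGG), the site of the factor NF-Y.
KIF18B, chr17:44947744-44947933, minus strand: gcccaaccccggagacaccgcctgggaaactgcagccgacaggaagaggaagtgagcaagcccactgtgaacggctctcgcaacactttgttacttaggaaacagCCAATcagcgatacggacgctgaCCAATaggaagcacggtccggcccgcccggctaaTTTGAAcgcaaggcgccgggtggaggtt
KIF23, chr15:69414189-69414378, plus strand: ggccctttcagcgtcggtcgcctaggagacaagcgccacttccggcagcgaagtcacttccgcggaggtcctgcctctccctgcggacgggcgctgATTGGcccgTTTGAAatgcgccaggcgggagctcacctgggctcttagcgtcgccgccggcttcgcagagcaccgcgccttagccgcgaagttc
KIF2C, chr1:44739677-44739866, plus strand: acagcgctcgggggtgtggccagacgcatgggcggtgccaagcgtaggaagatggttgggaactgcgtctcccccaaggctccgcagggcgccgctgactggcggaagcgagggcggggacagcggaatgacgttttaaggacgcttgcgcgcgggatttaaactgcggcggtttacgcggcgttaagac
KIF24, chr9:34329239-34329428, minus strand: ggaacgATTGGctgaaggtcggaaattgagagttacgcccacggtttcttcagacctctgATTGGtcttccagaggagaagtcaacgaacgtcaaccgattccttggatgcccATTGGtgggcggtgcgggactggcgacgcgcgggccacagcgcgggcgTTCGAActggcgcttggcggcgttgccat
KIF20A, chr5:138178952-138179141, plus strand: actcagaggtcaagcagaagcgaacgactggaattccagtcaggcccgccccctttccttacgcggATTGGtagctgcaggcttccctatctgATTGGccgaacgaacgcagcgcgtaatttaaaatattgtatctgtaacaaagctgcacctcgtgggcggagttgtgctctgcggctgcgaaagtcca
KIF5B, chr10:32056396-32056585, minus strand: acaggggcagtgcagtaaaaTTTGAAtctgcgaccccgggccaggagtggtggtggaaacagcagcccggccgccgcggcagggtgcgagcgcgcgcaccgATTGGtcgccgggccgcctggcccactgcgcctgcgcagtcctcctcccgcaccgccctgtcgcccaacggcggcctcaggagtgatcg

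In KIF18B the CHR lay at position 3 after the start, with 29 bases between it and the nearer CCAAT box. In KIF23 only 4 bases separated the elements, and KIF24 had a CHR at position 2 behind 3 CCAAT boxes. KIF2C had neither element in these letters, and KIF20A had 2 CCAAT boxes without a CHR. KIF5B had both, but with the CHR 140 bases before the start, upstream of the CCAAT box.

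Over the RefSeq windows of 300 bases (250 before and 50 after the start), 10 of the 12 mitotic kinesins had a CHR (83.3%) and 10 a CCAAT box, and 9 had both in 1 window. Among the 22 other kinesins with a window in the table, which are not the same 22 that were tested below, 3 had a CHR (13.6%), namely KIF24, KIF5B and KIF4B, and 8 a CCAAT box (36.4%). Of all 27305 genes in the same table, 19.5% had a CHR, 39.7% a CCAAT box and 7.8% both in 1 window, and by window the share with a CHR was 16.4%. A site for E2F factors (TTTCCCGC, TTTCGCGC, TTTGCCGC or TTTGGCGC, either strand) was found in 1 mitotic kinesin, KIF15, and 1 other kinesin, KIF25, against 4.0% of all genes. In the 9 mitotic windows with both elements, the closest pair was 4 bases apart in KIF23 and the widest 117 bases in KIF20B, whose 2 CHR copies lay after the start. A match of letters is a description and not a measured binding site. KIF5A, KIF13B, KIF19, KIF21B, KIF26B, KIF27, KIFC2 and KIFC3 had no window in the table.

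**Figure D1:**
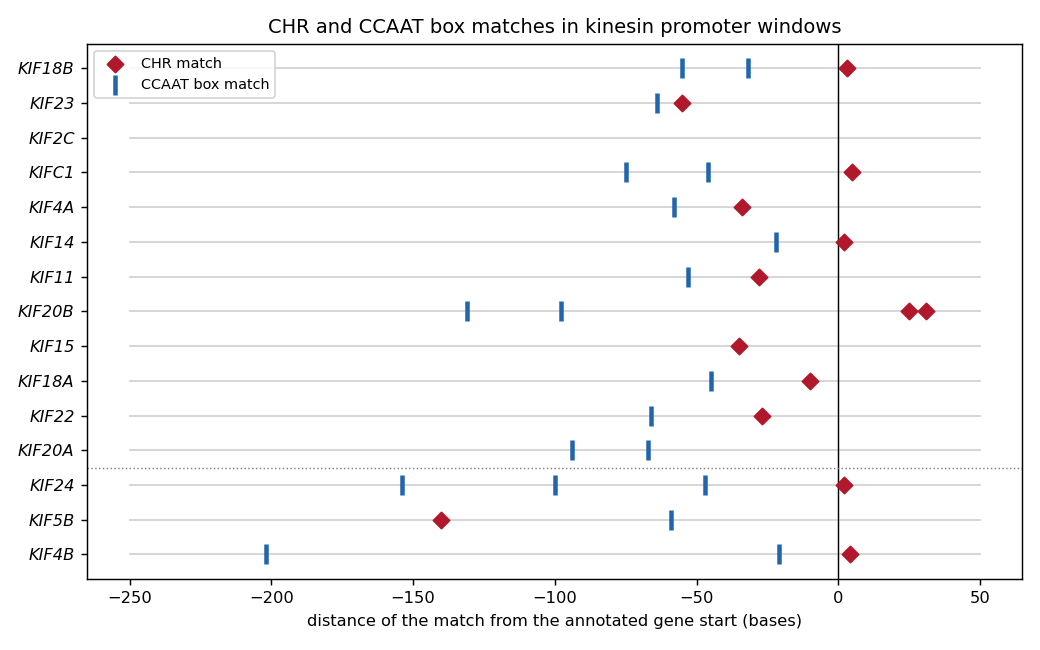
Position of CHR matches (diamonds) and CCAAT box matches (bars) in the promoter windows of the 12 mitotic kinesins, ordered by their zone difference, and of KIF24, KIF5B and KIF4B under the dotted line. The x axis is the distance in bases from the annotated start (0), and for KIF22 the first of its 2 windows is drawn. In 10 mitotic genes the CHR lies between positions -55 and 31, and KIF2C carries no match.

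To compare the zones, counts were expressed as CPM, a gene's counts relative to the TMM-scaled library total, and edgeR estimated the log2 ratio of invasion zone to core, positive where the invasion zone was higher. A gene was called at a Benjamini-Hochberg adjusted p under 0.05 over all 15529 genes tested with a change of at least 2-fold. All 12 mitotic and 22 other kinesins reached the count minimum. All 12 mitotic kinesins were higher in the invasion zone, with log2 fold changes from 0.80 to 1.53 and a median of 1.21, beside 0.09 for the 22 other kinesins and -0.01 for all genes tested. Of the other kinesins, 13 of 22 had a positive value, beside 49.3% of all genes, and they spread from -0.95 to 1.03. This and later counts include KIF4B, which reached the count minimum only in the invasion zone libraries, where it was higher. In bulk RNA, more cells of a kind and more RNA per cell cannot be told apart.

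The edgeR test without a replicate term called 0 of the 12 mitotic and 0 of the 22 other kinesins, beside 0% of all genes in either direction, and the adjusted p of the mitotic genes lay between 0.128 and 0.366. Taking the unadjusted p of edgeR under 0.05 and 2-fold, 8 of the 12 mitotic kinesins were higher against 2.92% of all genes, as was 1 of the 22 others, KIF24, and 0 kinesins were lower against 5.85%. The limma voom test called 0 kinesins, beside 0% of all genes. DESeq2 called 8 mitotic kinesins and KIF24 higher at an adjusted p, against 2.28% of all genes, and 0 kinesins lower against 3.53%. With the replicate number as a block, which compares the zones within each replicate, edgeR called 10 mitotic kinesins and KIF24 higher, against 3.41% of all genes, and 0 kinesins lower against 7.06%. The calls with the block rest on reading the replicate number as a shared spheroid, which no source states, and on 1 residual degree of freedom. KIF18A and KIF22 passed the adjusted p in that test but stayed just under 2-fold (0.99 and 0.96 on the log2 scale). The libraries did not overlap, with the invasion zone higher, for 12 of 12 mitotic kinesins and 9 of 22 others, beside 28.1% of all genes, and with the invasion zone lower for 0 and 6, beside 30.3%. By fold alone, 9 mitotic kinesins and 1 other reached 2-fold higher, beside 4.64% of all genes, and 0 of the 34 tested were 2-fold lower, beside 8.87%. That mitotic count was 2 without core replicate 1, 12 without core replicate 2, 11 without invasion zone replicate 1 and 7 without invasion zone replicate 2.

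**Figure D2:**
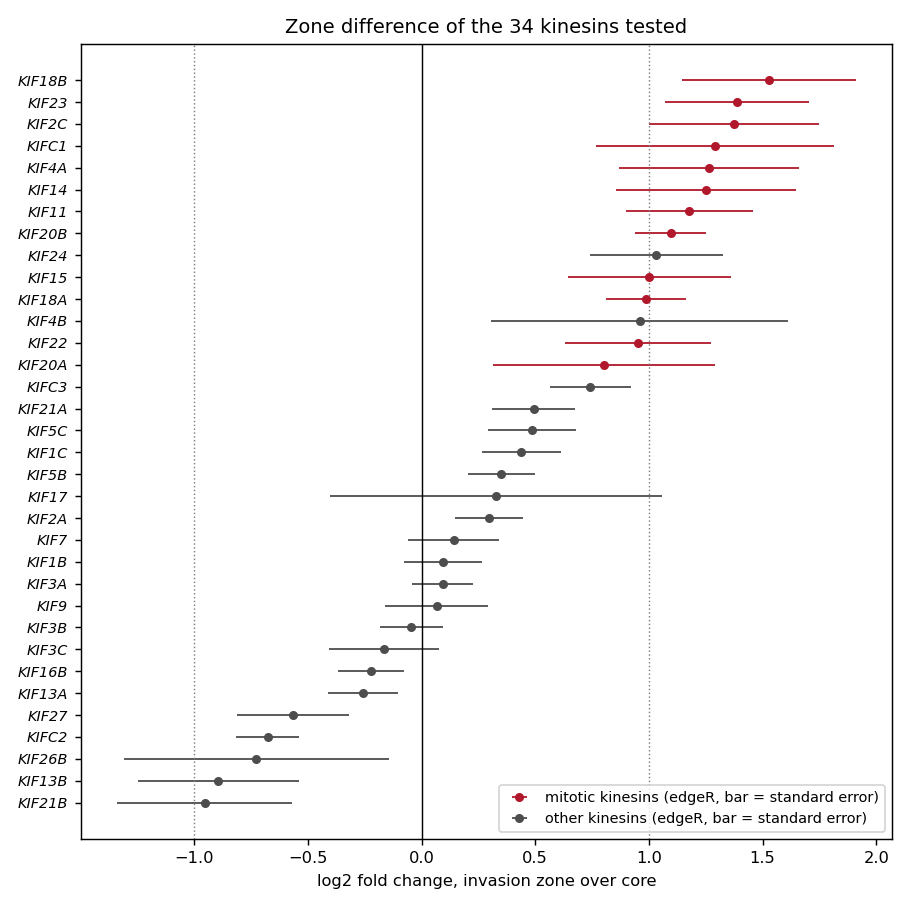
Log2 ratio of invasion zone to core for the 34 kinesins tested, with the standard error derived from the edgeR test as a bar. Mitotic kinesins (red) fill the top of the order between 0.80 and 1.53, together with KIF24 and KIF4B of the other kinesins (grey). KIF4B reached the count minimum only in the invasion zone libraries. Dotted lines mark a 2-fold change.

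Motors that set up and shape the spindle were examined first. KIF11 (ENSG00000138160, chromosome 10, 92574105 to 92655395 of GRCh38), also called Eg5, slides antiparallel microtubules to push the spindle poles apart. It had 32.9 and 57.0 CPM in core replicates 1 and 2 and 96.6 and 106 CPM in invasion zone replicates 1 and 2, a log2 fold change of 1.18 (standard error 0.28) and an adjusted p of 0.133 (edgeR). Both invasion zone values were above both core values. With the replicate block KIF11 rose by 1.23 on the log2 scale (adjusted p = 0.000317).

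KIF15 (chromosome 3, 44761721 to 44873376), which can hold spindle poles apart when KIF11 fails, was among the less abundant mitotic kinesins. It had 11.9 and 24.9 CPM in core replicates 1 and 2 and 34.4 and 38.8 CPM in invasion zone replicates 1 and 2, a log2 fold change of 1.00 (standard error 0.36). The core libraries differed more from each other than the invasion zone libraries did. KIFC1 (chromosome 6, 33391823 to 33409896), a motor that walks to microtubule minus ends and gathers centrosomes, had 15.7 and 45.2 CPM in core replicates 1 and 2 and 57.0 and 91.1 CPM in invasion zone replicates 1 and 2. Its log2 fold change of 1.29 (standard error 0.52) carried the largest standard error of the mitotic genes. KIF2C (chromosome 1, 44739818 to 44767767), also called MCAK, takes microtubules apart at their ends and corrects faulty attachments to chromosomes. It had 44.7 ± 23.1 CPM as core mean and 115 ± 16.9 CPM as invasion zone mean (SD, n = 2 each), and the separate values were 28.4 and 61.0 CPM as core values and 103 and 127 CPM as invasion zone values. The log2 fold change was 1.37 (standard error 0.37), with an adjusted p of 0.142 in edgeR and 0.00435 in DESeq2.

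The motors of chromosome arms and kinetochore fibres had the same direction. KIF18B (chromosome 17, 44924709 to 44947773), which limits the growth of astral microtubules, had 10.5 and 23.0 CPM in core replicates 1 and 2 and 44.1 and 51.7 CPM in invasion zone replicates 1 and 2. Its log2 fold change of 1.53 (standard error 0.38) was the largest of the 34 kinesins, and the log2 difference, taken on log2(CPM + 0.5), was 2.01 within replicate 1 and 1.15 within replicate 2. KIF18A (chromosome 11, 28020619 to 28108156), which dampens the swinging of chromosomes at the spindle centre, had 54.2 and 67.8 CPM in core replicates 1 and 2 and 111 and 130.1 CPM in invasion zone replicates 1 and 2. Its 2 replicates gave close differences of 1.03 and 0.94, and the log2 fold change was 0.99 (standard error 0.18). KIF22 (chromosome 16, 29790727 to 29805385), a chromatin-bound motor that pushes chromosome arms outward, had 52.2 and 85.8 CPM in core replicates 1 and 2 and 104 and 162 CPM in invasion zone replicates 1 and 2, a log2 fold change of 0.95 (standard error 0.32). The replicates again gave close differences, 0.99 and 0.92. KIF4A (chromosome X, 70290104 to 70420886), which condenses chromosomes and with PRC1 sets the length of the central spindle, had 23.2 and 54.1 CPM in core replicates 1 and 2 and 87.4 and 97.0 CPM in invasion zone replicates 1 and 2, a log2 fold change of 1.26 (standard error 0.40). KIF4B, a copy of KIF4A without introns, had 47 counts in all libraries together, and reads of such near-identical copies cannot always be told apart in counting, so its values are uncertain. KIF4B also reached the count minimum only in the invasion zone libraries (0.694 and 0.421 CPM, beside 0.363 and 0.199 CPM in the core). Its direction is thus tied to how it entered.

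Cytokinesis kinesins act at the midzone and midbody after the chromosomes have parted. KIF23 (chromosome 15, 69414246 to 69448427), which forms centralspindlin with RACGAP1, had 58.0 ± 25.2 CPM as core mean and 151 ± 16.4 CPM as invasion zone mean (SD, n = 2 each). The separate values were 40.2 and 75.8 CPM as core values and 139.6 and 163 CPM as invasion zone values, so that the invasion zone libraries lay well above both core libraries. Its log2 fold change was 1.39 (standard error 0.32) and the adjusted p 0.131 in edgeR and 0.000171 with the replicate block. KIF14 (chromosome 1, 200551497 to 200620751), which works with citron kinase in the closing furrow, had 13.8 and 29.98 CPM in core replicates 1 and 2 and 43.5 and 59.9 CPM in invasion zone replicates 1 and 2, a log2 fold change of 1.25 (standard error 0.40). KIF20B (chromosome 10, 89701590 to 89774939), a midbody motor of late cytokinesis, had 39.8 and 47.1 CPM in core replicates 1 and 2 and 96.8 and 88.5 CPM in invasion zone replicates 1 and 2. Its log2 fold change of 1.09 (standard error 0.16) had the smallest standard error of the mitotic genes, and it was the only one of them called without invasion zone replicate 2.

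KIF20A (chromosome 5, 138178719 to 138187723), which brings the chromosomal passenger complex to the midzone, stood apart from the other mitotic kinesins. It had 32.7 and 96.7 CPM in core replicates 1 and 2 and 107 and 118 CPM in invasion zone replicates 1 and 2. Core replicate 2 was thus close to both invasion zone libraries and far above core replicate 1, and the groups were separated by a narrow gap. The difference between the zones was 1.69 within replicate 1 and 0.29 within replicate 2, and the log2 fold change of 0.80 (standard error 0.49) was 0.23 without core replicate 1 and 1.79 without core replicate 2. With the replicate block in edgeR KIF20A was called only just past 2-fold, at 1.0035 on the log2 scale (adjusted p = 0.0157). In 5 other mitotic kinesins 1 library moved the log2 fold change by over 1.5 times. Without core replicate 1 it was 0.56 for KIF15, 0.72 for KIFC1, 0.78 for KIF4A and 0.79 for KIF14, and without core replicate 2 it was 1.63, 2.25, 2.00 and 1.91 for the same genes. For KIF22 it was 0.60 without invasion zone replicate 2. On the opposite strand, 206 of the 3852 exonic bases of KIF20A overlap BRD8 and CDC23, and no source used here gives the strand setting of the counting. The same kind of overlap covers 424 of 3030 exonic bases of KIFC1, 561 of 7169 of KIF22, 231 of 6576 of KIF23, 175 of 3646 of KIF2C and 77 of 4573 of KIF4A. Among other kinesins it covers, for example, 2446 of 13050 bases of KIF2A, 1048 of 5878 of KIF9 and 830 of 7739 of KIF27. It also covers 589 of 5446 bases of KIF7, 538 of 9602 of KIFC3 and 84 of 8578 of KIF1C. On the same strand, 331 bases of KIF2A and 293 of 18915 bases of KIF1B overlap other genes.

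**Figure D3:**
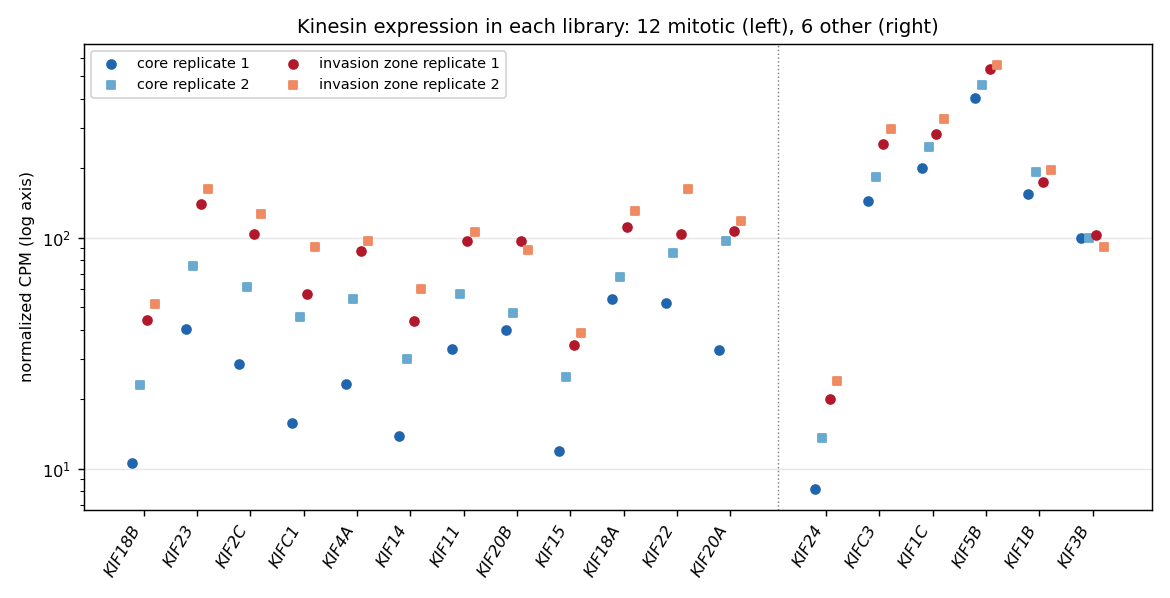
Normalized CPM (log axis) of the 12 mitotic kinesins and of KIF24, KIFC3, KIF1C, KIF5B, KIF1B and KIF3B in the 4 libraries, blue for the core and red or orange for the invasion zone. In every mitotic kinesin both invasion zone libraries are above both core libraries, and core replicate 2 is above core replicate 1.

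Libraries of the same zone also differed in the mitotic set. Core replicate 2 exceeded core replicate 1 for 12 of 12 mitotic kinesins, by a median of 1.06 on the log2 scale, where 50% of all genes did so. Between the invasion zone libraries the median difference was 0.22, replicate 2 over replicate 1, with 11 of 12 genes higher in replicate 2. The zone difference was larger in replicate 1 for 12 of 12 mitotic kinesins, with a median of 1.66 against 0.93 in replicate 2. It was also larger there for 20 of 22 other kinesins (medians 0.15 and 0.06), 19 of 19 mitotic partner genes described below and 57.5% of all genes. Depth also separates the replicates, with the replicate 2 libraries the shallower ones in both zones, and its part in the difference was not tested.

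**Figure D4:**
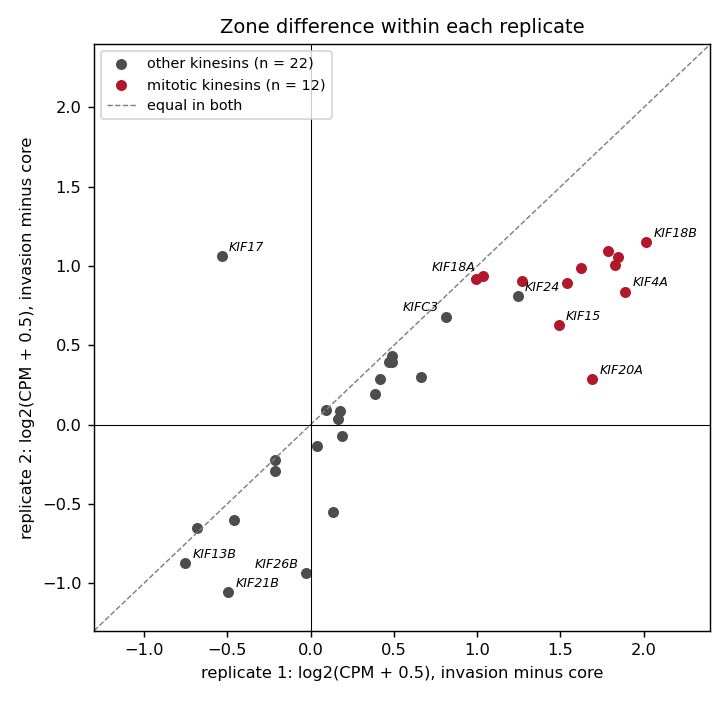
Difference of log2(CPM + 0.5), invasion zone minus core, within replicate 1 (x axis) and within replicate 2 (y axis) for the 34 kinesins tested. All 12 mitotic kinesins (red) are positive on both axes and lie under the dashed line of equal differences. Of the 22 other kinesins (grey), which spread around 0, 20 also lie under that line.

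The other kinesins had no common direction. In both replicates the difference was positive for 11 of 22 and negative for 7 of 22, against 39.8% and 40.9% of all genes, and 14 of 22 stayed within 0.5 of 0 on the log2 scale of the edgeR estimate. KIF24 (chromosome 9, 34252380 to 34329268), a microtubule depolymerase of the centriole that restrains cilium formation, was the only one of them at 2-fold or more. It had 8.19 and 13.5 CPM in core replicates 1 and 2 and 20.1 and 24.1 CPM in invasion zone replicates 1 and 2, a log2 fold change of 1.03 (standard error 0.29), and was called with the replicate block (adjusted p = 0.00101) and by DESeq2. Both of its invasion zone values were above both core values. Counts on 328 of its 6479 exonic bases could be shared with genes on the opposite strand.

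Levels were compared between genes as CPM per kb of canonical transcript, a scale that adjusts for the length of 1 transcript per gene. The counts cover all exons of a gene, which can be far longer together than that transcript. KIF22 has 2081 canonical and 7169 exonic bases, and KIFC3 has 3359 and 9602. The ranks and shares below hold for the canonical length only, and no other length was tried. KIF5B, the ubiquitous heavy chain of conventional kinesin that hauls mitochondria and vesicles, was the highest kinesin in both zones, with 73.3 CPM per kb in the core and 93.5 in the invasion zone. KIFC3, a minus-end motor of cell junctions and the Golgi, was second, with 48.8 CPM per kb in the core and 81.6 in the invasion zone. KIF22 was the third in both zones. Below these the order shifted, with KIF23 and KIF2C at ranks 9 and 10 of 34 in the core and ranks 4 and 5 in the invasion zone. KIF3B was at rank 7 in the core and 13 in the invasion zone. Mitotic kinesins made up 30.7% and 42.6% of the summed kinesin CPM per kb in core replicates 1 and 2 and 49.2% and 53.4% in the invasion zone. The groups did not overlap in this share, but the core libraries lay further apart than core replicate 2 and invasion zone replicate 1 did.

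The 5 other kinesins highest per kb had log2 fold changes from -0.04 to 0.74. KIF5B had 403 and 457 CPM in core replicates 1 and 2 and 539 and 559 CPM in invasion zone replicates 1 and 2, a log2 fold change of 0.35 (standard error 0.15). KIFC3 had 144 and 183 CPM in core replicates 1 and 2 and 254 and 294 CPM in invasion zone replicates 1 and 2, a log2 fold change of 0.74 (standard error 0.18), the largest of these 5 and close to that of KIF20A. Both passed an adjusted p under 0.05 with the replicate block but stayed under 2-fold. KIFC3 also had an adjusted p of 0.0142 in DESeq2, and it reached 2-fold and was called with the block joined to a correction for GC content and length (1.01 on the log2 scale, adjusted p = 2.08e-05 in edgeR). KIF1C, a fast vesicle motor, had 199.8 and 247 CPM in core replicates 1 and 2 and 280.0 and 326 CPM in invasion zone replicates 1 and 2, a log2 fold change of 0.44 (standard error 0.17). KIF1B, which carries mitochondria and synaptic vesicle precursors, had 155 and 193 CPM as core values and 174 and 197 CPM as invasion zone values, and the zones overlapped. KIF3B, a subunit of the kinesin that builds cilia, had 99.9 and 99.6 CPM as core values and 102 and 90.8 CPM as invasion zone values, a log2 fold change of -0.04 (standard error 0.14), and its partner KIF3A was at 0.09 (standard error 0.13). Without the fold minimum and with the replicate block, 7 other kinesins were higher (KIF24, KIFC3, KIF21A, KIF5C, KIF1C, KIF5B and KIF2A) and 2 were lower (KIFC2 and KIF13B), against 19.4% of all genes in each direction, beside 12 of 12 mitotic kinesins.

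None of the 34 kinesins tested was lower by 2-fold. KIFC2, described as a transport motor of neurons, had 45.9 and 45.2 CPM in core replicates 1 and 2 and 28.4 and 28.6 CPM in invasion zone replicates 1 and 2. Its log2 fold change of -0.68 (standard error 0.14) was similar in both replicates (-0.68 and -0.65). KIF13B, which carries membrane proteins, had 7.57 and 12.1 CPM as core values and 4.30 and 6.40 CPM as invasion zone values, a log2 fold change of -0.89 (standard error 0.35). In both genes the invasion zone libraries were below the core libraries, and part of the exonic bases (791 of 4447 and 864 of 11113) overlaps genes on the opposite strand. KIF21B had 2.46 and 3.52 CPM as core values and 1.60 and 1.43 CPM as invasion zone values and the lowest log2 fold change, -0.95 (standard error 0.38). KIF27 was at -0.56 and KIF26B at -0.73, the latter with overlapping zones. KIF17 had opposite differences in the replicates, -0.53 and 1.06, at 7 to 37 counts per library.

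The remaining 8 kinesins did not reach the count minimum and were not tested. KIF2B and KIF12 had 0 counts in all 4 libraries, and KIF1A, KIF5A, KIF6, KIF19 and KIF26A had at most 2 counts in any library. KIF25 had 5 and 6 counts as core values and 2 and 0 as invasion zone values. Several of these are known from neurons, cilia or testis. A zone difference in these genes was not detectable at this depth.

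Kinesin families with more than 1 member tested were also set side by side. In kinesin-6 (KIF20A, KIF20B and KIF23) and kinesin-8 (KIF18A and KIF18B) all members tested are mitotic, with log2 fold changes from 0.80 to 1.39 and from 0.99 to 1.53. In kinesin-1 KIF5B and KIF5C were at 0.35 and 0.48, and the 4 members of kinesin-2 lay between -0.17 and 0.33. In the kinesin-13 family the log2 fold change was 1.37 for KIF2C and 1.03 for KIF24, beside 0.30 for KIF2A, which also acts outside mitosis. In the kinesin-14 family it was 1.29 for KIFC1, 0.74 for KIFC3 and -0.68 for KIFC2. Within kinesin-3, KIF14 stood at 1.25, while the vesicle motors KIF1B, KIF1C, KIF13A, KIF13B and KIF16B lay between -0.89 and 0.44. Within kinesin-4, KIF4A was at 1.26 and its copy KIF4B at 0.96 (standard error 0.65, at 3 to 26 counts per library, past the count minimum only in the invasion zone). The ciliary and neuronal members KIF7, KIF21A, KIF21B and KIF27 lay between -0.95 and 0.49. The differences between paralogs were not tested.

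Partners of the kinesins were taken from 4 lists. Among 19 mitotic partners, all tested, 15 had log2 fold changes of 1 or more and the median was 1.22. With the replicate block 15 were called higher and 0 lower, against 3.41% and 7.06% of all genes. Without the block edgeR called 0 of the 19, beside 0% of all genes, and their lowest adjusted p was 0.128. CENPE, the kinetochore motor of the kinesin-7 kind, had 43.1 and 65.8 CPM in core replicates 1 and 2 and 167 and 152 CPM in invasion zone replicates 1 and 2, a log2 fold change of 1.56 (standard error 0.23). AURKB, the kinase that phosphorylates KIF2C and KIF23 at centromere and midzone, had 18.5 and 48.6 CPM as core values and 77.1 and 118 CPM as invasion zone values, a log2 fold change of 1.55 (standard error 0.48). PRC1, the midzone bundler that recruits KIF4A, was at 1.46 and RACGAP1, the partner of KIF23, at 1.08. Of the other 4, CKAP5 was at 0.64, and NUMA1, CLASP1 and CLASP2 were at -0.56, -0.07 and 0.04.

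Kinesin light chains and cargo adaptors (13 of 16 tested) had a median log2 fold change of -0.02, with 0 called higher and 1 lower with the replicate block. This and the following counts stand beside 3.41% of all genes called higher and 7.06% called lower with the block. A count of 1 of 13 is close to that background. Without the block edgeR called 0 genes in this list and in those that follow, beside 0% of all genes. The gene called lower with the block was KLC4, a light chain. It had 28.9 and 22.9 CPM as core values and 14.1 and 6.31 CPM as invasion zone values. Its log2 fold change was -1.31 (standard error 0.39). MAPK8IP1, an adaptor between kinesin and its cargo, was at -0.72. Cytoplasmic dynein and dynactin, the motor that walks the opposite way, had 23 of 25 genes tested, a median of 0.04 and 0 called in either direction with the block. The most different of them were BICD2 (0.46) and ACTR1B (-0.43), both dynein-dynactin parts or adaptors. Of the tubulins that form the track, 14 of 17 were tested, with a median of 0.26, and 1 was called higher and 1 lower with the block. TUBA1B had 36.3 and 58.8 CPM as core values and 72.9 and 122 CPM as invasion zone values, a log2 fold change of 1.03 (standard error 0.34). TUBB2B, the tubulin called lower, was low, at 1.37 and 1.39 CPM as core values and 0.213 and 0.168 CPM as invasion zone values, and had a log2 fold change of -2.77 (standard error 0.55). It reached the count minimum only in the core libraries (49 and 21 counts, beside 8 and 2 in the invasion zone). Its direction is thus tied to how it entered.

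**Figure D5:**
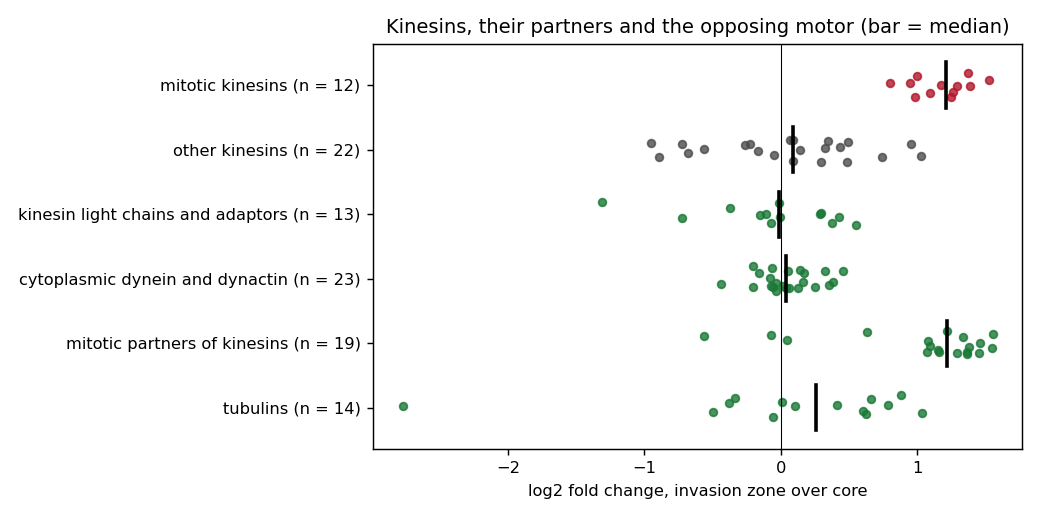
Log2 ratio of invasion zone to core (x axis) for each gene tested in 6 groups, with the median as a bar. The mitotic kinesins and their mitotic partners have medians of 1.21 and 1.22, and the other kinesins, light chains and adaptors, and dynein and dynactin have medians within 0.1 of 0.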

How the data were processed

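The members and gene lists were chosen with earlier results of these data known. Per the paper's methods, the authors removed ribosomal reads with Bowtie, aligned to hg38 with STAR and deposited raw counts per gene from HTSeq-count. No source used here gives tool versions, the annotation or the strand setting. Of 56306 rows, 3 with a repeated identifier and no counts were left out.

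In R 4.3.3, a gene entered (15529 genes) with 15 counts in total and, in 2 or more libraries, the CPM that equals 10 counts in a library of median size. Zones were compared over all of them by the quasi-likelihood test of edgeR 4.0.16 with TMM scaling. The standard errors given were derived as the absolute log2 fold change divided by the square root of the F statistic of that test. DESeq2 1.42.0 and limma 3.58.1 (voom) were alternatives. The protocol cuts both zones from a dissected spheroid, so the replicate number was read as pairing the libraries. No source states that it marks a shared spheroid, and this reading was made with the effect of the block on the calls known from earlier results. The deviations from the zone mean correlated between libraries of the same number (0.64 across genes). With 2 libraries per zone the deviations mirror each other, so the pairs repeat each other. Depth also goes with the replicate number, and its part in this correlation was not tested. Within-replicate differences used log2(CPM + 0.5). Same-zone libraries were not duplicates (chi-square per degree of freedom 37.9 and 35.2). The procedure was run on simulated data with larger changes than those of the kinesins, so that run does not gauge the kinesin calls.

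Genes given in all 4 libraries were the mitotic kinesins, other kinesins past 2-fold or called with or without the block, and the 5 other kinesins highest per kb. From each partner list the 2 with the largest change were named, and further names were chosen after their values were seen. Positions, lengths and overlaps came from GENCODE 44, which holds 42 of the 42 members, and promoters from RefSeq (34 of 42 matched). The protein stretches named in that rule are not analysed here. Figures used matplotlib 3.10.9.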

Additional observations from a re-analysis of the deposited data

How the results depend on the processing

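The 0 calls among all genes, mitotic and other kinesins stayed at 0 with RLE or upper-quartile scaling, limma voom, no fold minimum, a minimum of 10 counts per library, thinning and a GC and length correction. They became 427 higher and 846 lower genes, 9 mitotic and 1 other kinesins higher without a count filter, 354 higher and 548 lower genes, 8 mitotic and 1 other kinesins higher with DESeq2, 444 higher and 840 lower genes, 9 mitotic and 1 other kinesins higher with its unadjusted p, and 454 higher and 909 lower genes, 8 mitotic and 1 other kinesins higher at an unadjusted p in edgeR. The cause was not tested.

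With the replicate block there were 530 higher and 1097 lower genes, 10 mitotic and 1 other kinesins higher, and the block joined to a GC and length correction gave 545 higher and 1042 lower genes, 9 mitotic and 2 other kinesins higher, where KIF22 and KIFC3 were called and KIF20A and KIF20B were not. The following were added after the data were seen. The replicate block gave 427 higher and 731 lower genes, 10 mitotic and 1 other kinesins higher in DESeq2, 575 higher and 1088 lower genes, 10 mitotic and 1 other kinesins higher in limma voom, and 470 higher and 756 lower genes, 9 mitotic and 1 other kinesins higher with at least 10 counts in every library. In DESeq2 with the block KIF18A was called and KIF20A was not (adjusted p = 0.246), unlike in edgeR with the block. Without the fold minimum the block in edgeR gave 3010 higher and 3009 lower genes, 12 mitotic and 7 other kinesins higher and 2 other kinesins lower.

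Leaving out 1 library at a time gave 0 to 555 higher and 4 to 1119 lower genes, 0 to 10 mitotic and 0 to 1 other kinesins higher, where a lone library is assumed to vary like the other zone. Mitotic calls numbered 0 with core replicate 1 left out, 9 with core replicate 2, 10 with invasion zone replicate 1 and 1 with invasion zone replicate 2 left out. The mitotic median was 0.82 without core replicate 1 and 1.85 without core replicate 2, and it stayed positive under every alternative run. The median of the other kinesins was 0.17 after the GC and length correction and 0.17 with the block as well, against 0.09. With 1 library left out, the log2 fold change of KIF1B ranged from -0.0438 (core replicate 1) to 0.27 (core replicate 2), also turning to -0.0013 in the absence of invasion zone replicate 2. That of KIF3B ranged from -0.14 (invasion zone replicate 1) to 0.0387 (invasion zone replicate 2). Intervals are limited by 2 libraries per zone, and depth by the 11789243 counts of the smallest.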
